A study of Homo sapiens with 6 samples.

Results

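The genes described here are 37 DNA repair and damage signalling genes in NB4 cells, chosen by name from the established repair pathways and followed over 72 h of all-trans retinoic acid (ATRA). NB4 cells are an established line from a human acute promyelocytic leukaemia with a PML-RARA fusion gene, and ATRA, which binds retinoic acid receptors, drives their maturation along the neutrophil lineage. The Affymetrix arrays, 6 in number, covered cells given 1e-06 M ATRA for 4, 12, 24, 48 and 72 h and untreated cells, taken as 0 h. Every group was 1 array of this line, so there were no replicates, and the effects of ATRA and of longer culture cannot be told apart. Of the 37 genes, 33 had a value among the 19775 genes with a probe set naming 1 gene, and all 33 were among the 13594 genes kept by the filter on low values. Their values stayed at 4.49 or above on every array, where the filter asked for 3.66 on at least 1. BRCA2, FANCA, FANCD2 and PMS2 were not analysed here.

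DNA repair is divided among pathways that recognise different lesions. Homologous recombination and the Fanconi anaemia pathway act on double-strand breaks and interstrand crosslinks, largely in cells that are copying their DNA, and many of their genes are transcribed mainly by cycling cells. Mismatch repair corrects replication errors, base excision removes damaged or wrong single bases, nucleotide excision removes bulky lesions such as those made by ultraviolet light, and end joining seals breaks without a template. The kinases ATM and ATR, with their targets CHEK2 and CHEK1, signal damage to the cell cycle. Neutrophil precursors stop dividing as they mature.

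Over the 6 arrays, 8 of the 33 measured repair genes had a falling trend and none rose: RAD54L, BLM and EXO1 of homologous recombination, FANCG of the Fanconi pathway, the mismatch gene MSH6, UNG and APEX1 of base excision, and the kinase CHEK1. The trend is the slope of the log2 value over time order (0 to 5), fitted with limma on all 13594 genes with a call where the Benjamini-Hochberg adjusted p was under 0.05. Among all genes 9.86% were called falling and 8.33% rising, against 24.2% and 0 of the repair genes. At an unadjusted p under 0.05, 11 repair genes sloped down (33.3%) and 1 up, against 2594 (19.1%) and 1855 of the 13594 genes. At 72 h, 9 repair genes were 2-fold or more lower than in untreated cells (27.3%, where 12.2% of all genes were) and none was 2-fold or more higher (10.9% of all genes). These 9 were the 8 falling genes and PRKDC.

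These counts depended on single arrays. The falling genes numbered 4 without the untreated array, 5 without 4 h, 3 without 12 h, 5 without 24 h, 4 without 48 h and 1 without 72 h. In these fits 3.94%, 6.35%, 7.61%, 9.33%, 7.02% and 1.98% of all genes fell, in the same order, so the share of repair genes was near that of all genes without 12 h and without 72 h. UNG was called with any 1 of the 6 arrays left out, with adjusted p (limma) between 0.00679 and 0.0247. EXO1 was called in each of these fits except the one without 72 h (limma adjusted p = 0.14). RAD54L was called in 4 of these 6 fits, BLM and CHEK1 in 2 each, and FANCG, MSH6 and APEX1 in 1 each. ATM was called rising without the untreated array, and FANCI without 72 h.

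The spiked hybridisation control bioC averaged 8.01 on the untreated array and 8.11 at 12 h but 6.88 to 7.17 at 4, 24, 48 and 72 h. A fit that carried the bioC level as a covariate called 5 repair genes falling, with 9.57% of all genes: BLM, CHEK1, EXO1, RAD54L and UNG. Within the 4 arrays of the lower bioC level none was called, where 0.94% of all genes were. Equalising the median of all 18 controls raised every 72 h difference by 0.66, and equalising bioB, bioD and cre without bioC changed it by -0.56. At 72 h bioB (7.14), bioD (10.65) and cre (12.48) were above their untreated values (6.54, 10.10 and 11.95), and only bioC was below. The first shift thus has the direction of bioC alone, opposite to that of the other controls. The first shift left 0 falling repair genes, with 0.35% of all genes, and the second gave 17, with 24.04% of all genes. The median 72 h difference of all genes, -0.06 as deposited, was 0.60 and -0.62 under these shifts. The median of the repair genes was -0.39 as deposited, 0.28 with the first shift and -0.95 with the second.

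The 18S ribosomal RNA controls averaged 8.63 at 12 h and 5.20 to 5.88 on the other arrays. Of the 33 repair genes, 6 had their lowest value at 12 h (15.0% of all genes did): BARD1, OGG1, XPA, XRCC4, LIG4 and ATR. The part of the ribosomal RNA signal in these values was not tested. The promyelocyte markers MPO (10.93 at 72 h and 12.90 in untreated cells), PRTN3, AZU1 and CTSG were above the filter and 2 of these 4 fell, while ELANE stayed at or below 3.32 and CD33 was not analysed here. Of 13 markers of other blood, stromal or epithelial cells, 9 passed the filter, with values between 3.59 and 6.82, and 1 rose (CD79A, 6.82 at 72 h and 5.36 in untreated cells). CD14 and MS4A1 stayed below the filter.

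**Figure D1:**
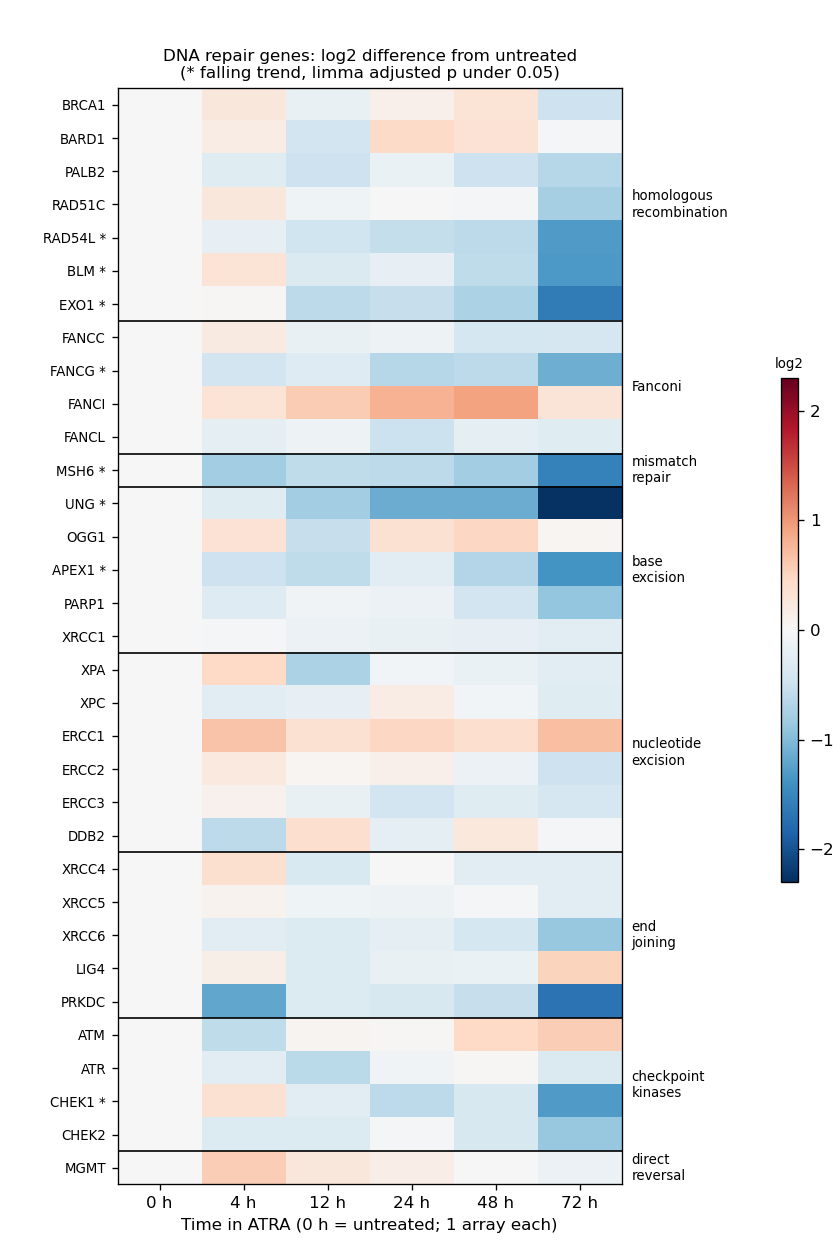
Heat map of the log2 difference from the untreated array for the 33 measured repair genes (rows, grouped by pathway) at 0, 4, 12, 24, 48 and 72 h of ATRA (columns, 1 array each); blue is lower and red higher than untreated, and a star marks the 8 falling trends. The 72 h column holds the darkest blue cells, with UNG lower by 2.27, and 20 of the 33 genes had their lowest value there, where 35.1% of all genes did.

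Homologous recombination genes differed among themselves. Of 7 measured, 3 fell (42.9%, against 9.86% of all genes) and none rose. Their median difference at 72 h was -0.76, which is -0.10 with the shift on all controls (all genes 0.60). EXO1, a nuclease that resects DNA ends and also serves mismatch repair, had values of 7.66, 7.68, 7.05, 7.13, 6.94 and 6.05 at 0, 4, 12, 24, 48 and 72 h. It was level for the first 4 h, then lower on each later array, and 3.06-fold lower at 72 h (slope -0.29 ± 0.06 per step, SE, limma adjusted p = 0.0177). BLM, the helicase mutated in Bloom syndrome, had 8.11, 8.42, 7.78, 7.91, 7.53 and 6.79. Its 4 h value was the highest of the 6, and at 72 h it was 2.51-fold lower (slope -0.26 ± 0.07, limma adjusted p = 0.0319). RAD54L, a motor protein that acts in strand exchange, had 8.20, 8.02, 7.74, 7.66, 7.60 and 6.90. It was lower on each array than on the one before and 2.47-fold lower at 72 h (slope -0.23 ± 0.05, limma adjusted p = 0.0214).

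BRCA1 and its partners gave no call, and their difference from the called genes was not tested. BRCA1, a ubiquitin ligase subunit that directs recombination, had values of 7.74, 8.0, 7.56, 7.86, 8.05 and 7.26, so it was at its highest at 48 h and its lowest at 72 h. Its partner BARD1 had 7.55, 7.72, 7.11, 7.99, 7.88 and 7.53, ending within 0.03 of untreated. Of the 3 BARD1 probe sets above the filter, differences at 72 h were -0.03, -0.37 and 0.13, so they disagreed in direction. PALB2, which links BRCA1 to BRCA2, differed by -0.65 at 72 h (limma adjusted p = 0.213). RAD51C, a recombination factor, stayed within 0.27 of untreated to 48 h and differed by -0.76 at 72 h (limma adjusted p = 0.175), while its second probe set differed by -1.23.

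In the Fanconi pathway 1 of 4 measured genes fell, where 9.86% of all genes did. The median difference at 72 h was -0.34, which turns to 0.33 with the shift on all controls (all genes 0.60). FANCG, a subunit of the core ubiquitin ligase complex, had values of 8.26, 7.82, 7.97, 7.60, 7.66 and 7.15, all later values lying below the untreated one (2.17-fold lower at 72 h, slope -0.18 ± 0.05, limma adjusted p = 0.039). FANCI, which that complex ubiquitinates together with FANCD2, went the other way for 48 h, with 8.04, 8.35, 8.61, 8.85, 8.97 and 8.33. It was higher by 0.93 at 48 h and by 0.30 at 72 h and was not called (limma adjusted p = 0.35). Its 3 probe sets differed by 0.30, 0.03 and -0.96 at 72 h, so the 72 h direction rests on which one is read. FANCL, the catalytic subunit of the complex, had a 72 h difference of -0.28, and FANCC, another core subunit, one of -0.39, and neither was called.

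MSH6, which recognises base mismatches, was the 1 mismatch repair gene measured. Its values were 9.63, 8.83, 9.05, 9.03, 8.84 and 8.08. It was lower by 0.80 already at 4 h, held that level to 48 h and was 2.93-fold lower at 72 h (slope -0.22 ± 0.07, limma adjusted p = 0.0498, just inside the threshold). The second MSH6 probe set above the filter differed by -0.27 at 4 h and -1.66 at 72 h, against -0.80 and -1.55 for the first.

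Base excision held the repair gene with the largest difference. Of 5 measured, 2 fell (40.0%, against 9.86% of all genes) and none rose. The median difference at 72 h was -0.90, which is -0.23 with the shift on all controls (all genes 0.60). UNG, the glycosylase that removes uracil from DNA, had values of 9.07, 8.79, 8.27, 7.92, 7.92 and 6.79. It was lower on each array to 24 h, level to 48 h, and 4.84-fold lower at 72 h (slope -0.41 ± 0.06, limma adjusted p = 0.00513). It was also the only member 2-fold or more lower at 24 h and at 48 h, where 1.99% and 4.49% of all genes were. No repair gene was 2-fold or more higher at those times, against 3.35% of all genes at 24 h and 5.83% at 48 h. APEX1, the endonuclease that cuts abasic sites, had 11.52, 11.04, 10.94, 11.27, 10.85 and 10.14, and was 2.60-fold lower at 72 h (slope -0.20 ± 0.06, limma adjusted p = 0.0449). PARP1, which senses strand breaks, differed by -0.90 at 72 h without a call (limma adjusted p = 0.0998). The scaffold XRCC1 was at most 0.24 below untreated on any array. OGG1, the glycosylase for oxidised guanine, had 6.39, 6.73, 5.86, 6.73, 6.86 and 6.43, lowest on the 12 h array and 0.04 above untreated at 72 h.

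Nucleotide excision repair gave no call among its 6 genes, at an adjusted p or an unadjusted p under 0.05 in limma. Of all genes 9.86% were called falling and 8.33% rising, so no adjusted call among 6 genes is near these shares. No member was 2-fold different at any time. The median difference at 72 h was -0.28, which turns to 0.39 with the shift on all controls (all genes 0.60). The damage verifier XPA differed by -0.26 at 72 h, the damage sensor XPC by -0.29, and the helicases ERCC2 and ERCC3 of the transcription factor TFIIH by -0.48 and -0.39. ERCC1, which forms a nuclease with ERCC4, was above untreated on all 5 later arrays, with 6.62, 7.29, 6.97, 7.10, 7.01 and 7.31 (slope 0.08 ± 0.06, limma adjusted p = 0.392). DDB2, an ultraviolet damage sensor and a p53 target, had 5.67, 5.08, 6.06, 5.46, 5.92 and 5.64, going down and up with no trend. Of 14 measured p53 target genes none was called, with 4 sloping up (28.6%) and 1 down (7.1%) at an unadjusted p under 0.05, against the 1855 and 2594 of all genes given above. PLK3 (1.76), FAS (1.32), GADD45A (1.25) and SESN2 (1.17) were 2-fold or more higher at 72 h, 28.6% of this list against 10.9% of all genes.

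End joining genes likewise gave no call, which among 5 genes is also near the shares of all genes. At an unadjusted p under 0.05 in limma, 1 of 5 sloped down (20.0%, against 19.1% of all genes). Their median 72 h difference of -0.27 turns to 0.40 with the shift on all controls (all genes 0.60). PRKDC, the catalytic subunit of the DNA-dependent protein kinase, had values of 9.74, 8.55, 9.43, 9.37, 9.20 and 8.05. It was 2.27-fold lower at 4 h, closer to untreated from 12 to 48 h (differences of -0.31, -0.37 and -0.54), and 3.24-fold lower at 72 h, and its trend was not called (slope -0.19 ± 0.11, limma adjusted p = 0.267). It was the only member 2-fold or more different at 4 h, where 1.81% of all genes were that much lower and 1.74% higher. At 12 h no repair gene was 2-fold lower or higher, against 1.93% and 2.3% of all genes. Its second well-measured probe set showed the same course, with differences of -1.24 at 4 h, -0.75 at 48 h and -1.79 at 72 h. The untreated and 12 h arrays have the higher bioC level, and the 4, 24, 48 and 72 h arrays the lower. The part of array differences in this course was not tested.

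None of the other end joining genes was called or 2-fold different at any time. XRCC6, the Ku70 subunit that holds broken ends, had 11.01, 10.75, 10.70, 10.79, 10.62 and 10.14, and was lower by 0.87 at 72 h, just outside the threshold (slope -0.13 ± 0.04, limma adjusted p = 0.051). Its partner XRCC5, Ku80, had 10.70, 10.79, 10.61, 10.59, 10.66 and 10.44, differing by -0.27 at 72 h. Its second probe set differed by -0.08, and another, near the filter level, by 1.04. XRCC4 and LIG4 form the ligase complex. XRCC4 differed by -0.26 at 72 h, while LIG4, the ligase itself, had 5.95, 6.07, 5.63, 5.78, 5.79 and 6.45, highest at 72 h without a call (limma adjusted p = 0.647).

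Of the 4 damage kinases 1 fell, where 9.86% of all genes did. Their median difference at 72 h was -0.60, which turns to 0.067 with the shift on all controls (all genes 0.60). CHEK1, the kinase that ATR activates when replication stalls, had values of 8.48, 8.83, 8.25, 7.88, 8.12 and 7.18. Its highest value came at 4 h and its lowest at 72 h, 2.47-fold below untreated (slope -0.26 ± 0.07, limma adjusted p = 0.0361). All 4 CHEK1 probe sets were lower at 72 h, by 1.46, 1.31, 0.80 and 0.50 on the log2 scale. CHEK2, the target of ATM, differed by -0.86 at 72 h (limma adjusted p = 0.181).

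ATM, which is activated by double-strand breaks, had values of 7.01, 6.43, 7.07, 7.03, 7.47 and 7.58. It was lowest at 4 h and highest at 72 h (slope 0.17 ± 0.06, limma adjusted p = 0.102). One of the 4 ATM probe sets above the filter was lower at 72 h, by 0.34, and the other 3 higher by 0.08 to 0.57. ATR differed by -0.33 at 72 h. MGMT, which removes methyl groups from guanine directly, had 4.63, 5.20, 4.88, 4.78, 4.63 and 4.49, with its highest value at 4 h and no call (limma adjusted p = 0.408).

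**Figure D2:**
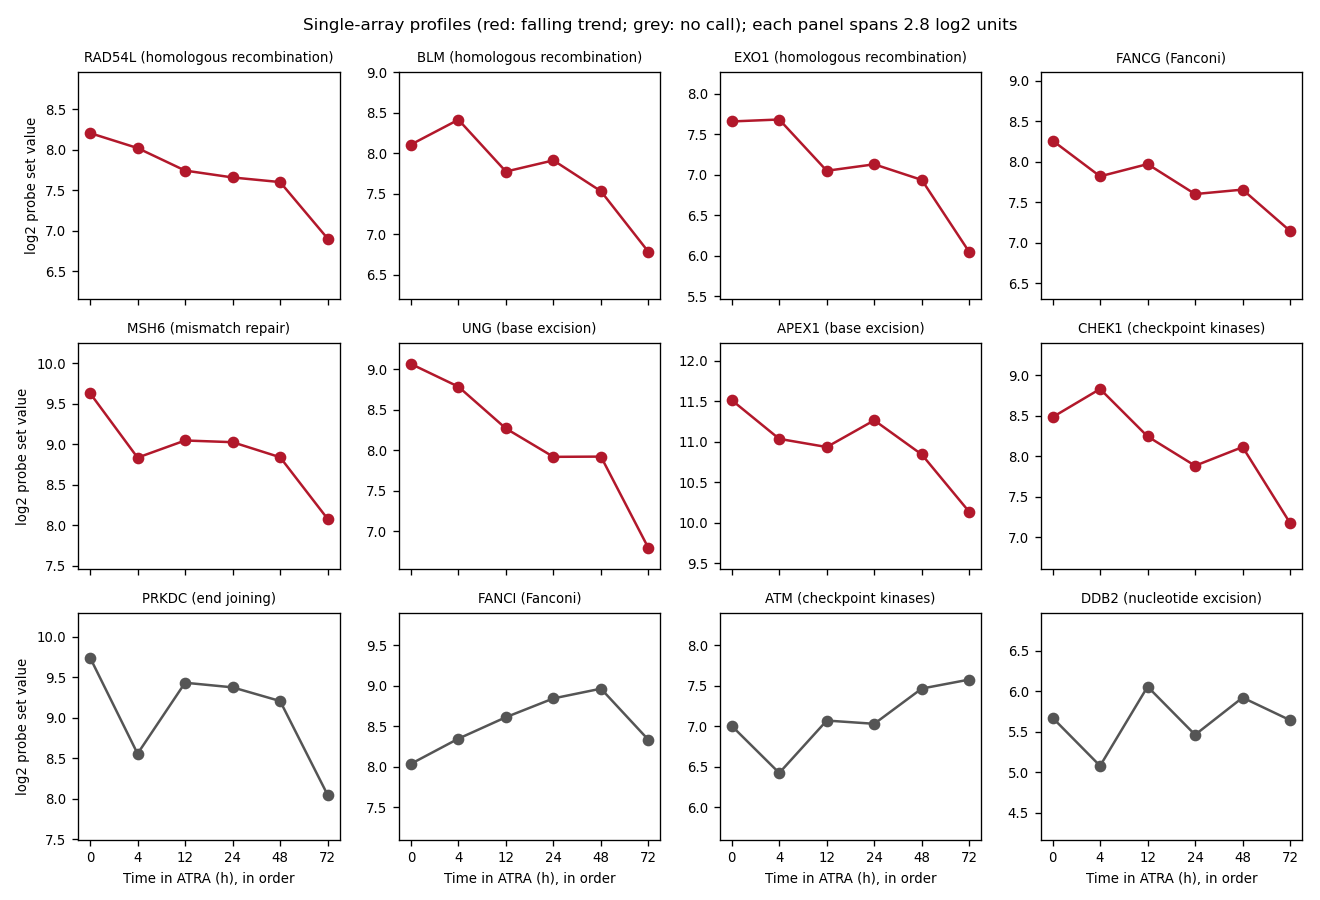
Log2 probe set values of 12 repair genes on the 6 arrays, 1 point per array, with time in ATRA in order from 0 to 72 h on the x axis and 2.8 log2 units on each y axis. The 8 red panels fell over the series, PRKDC dipped at 4 h (8.55) and at 72 h (8.05), FANCI peaked at 48 h (8.97), ATM was highest at 72 h (7.58), and DDB2 alternated.

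Much of the change came after 48 h. Between 48 and 72 h, 28 of the 33 repair genes were lower at 72 h, where 55.8% of all genes were, and their median difference was -0.35 against -0.05 for all genes. Both arrays have the lower bioC level, and the part of other array differences in this step was not tested. The shifts on all controls and without bioC moved the median to -0.69 and -0.56, with all genes at -0.39 and -0.26, and cyclic loess to -0.24, with all genes at 0.03. For the 8 falling genes and PRKDC, the step after 48 h made up 45.8% (FANCG) to 71.8% (CHEK1) of the whole log2 difference at 72 h. These are the genes 2-fold or more lower at 72 h, and a choice by the 72 h value favours a large last step. UNG and PRKDC were 2-fold or more lower at 72 h than at 48 h, where 2.14% of all genes were. No repair gene was 2-fold or more higher in this step, against 4.74% of all genes. LIG4 (0.67), ERCC1 (0.30), ATM (0.11), FANCC (0.01) and XRCC4 (0.01) were higher at 72 h than at 48 h. No replicate bears on the 72 h array.

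**Figure D3:**
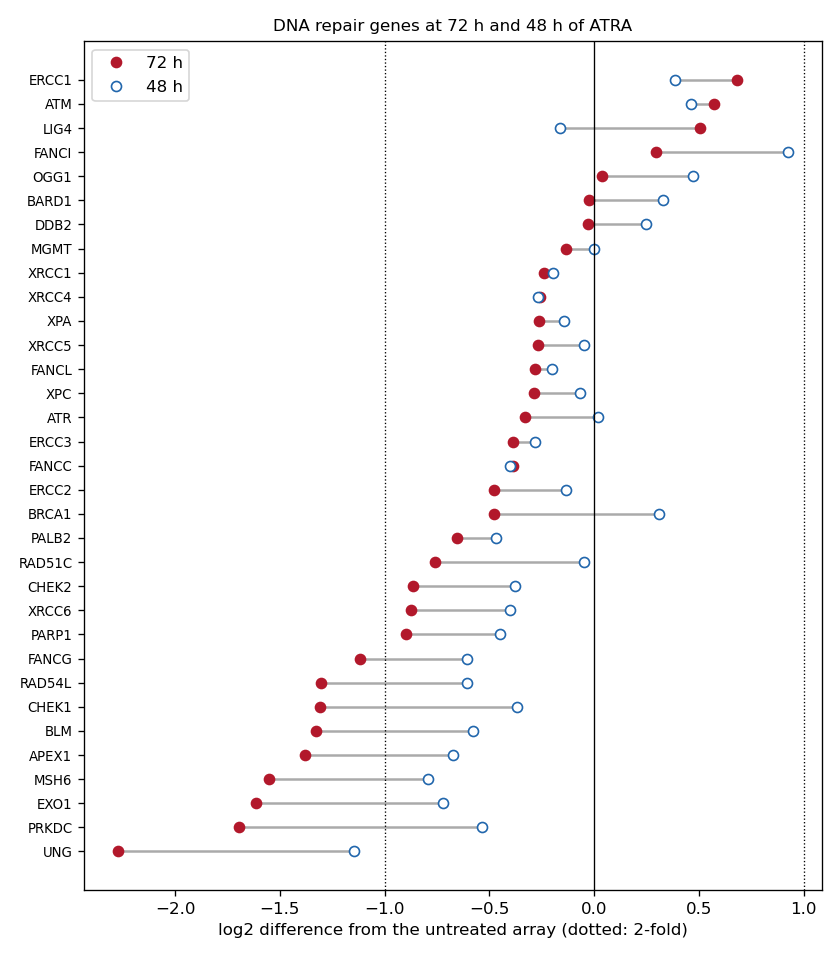
Log2 difference from the untreated array at 72 h (filled red) and 48 h (open blue) for the 33 measured repair genes, 1 array each, ordered by the 72 h value; dotted lines mark 2-fold. In 28 genes the 72 h point lies left of the 48 h point, and 9 genes lie beyond the 2-fold line at 72 h against 1 (UNG) at 48 h.

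Some genes that copy DNA fell over the same arrays. Of 20 S-phase genes, which build and start replication forks, 7 fell and none rose, and their median differences were -0.30 at 48 h and -0.98 at 72 h, which is -0.31 with the shift on all controls. The replicative helicase subunits MCM4 (-1.99 at 72 h) and MCM3 (-1.65), the helicase cofactor GINS2 (-1.87) and the loading factor CDC6 (-1.58) fell, while 13 of the 20 were not called. The part of cycling cells in the repair gene values was not tested. In RNA from whole cultures, fewer cells that express a gene and less of its RNA per cell cannot be told apart.

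**Figure D4:**
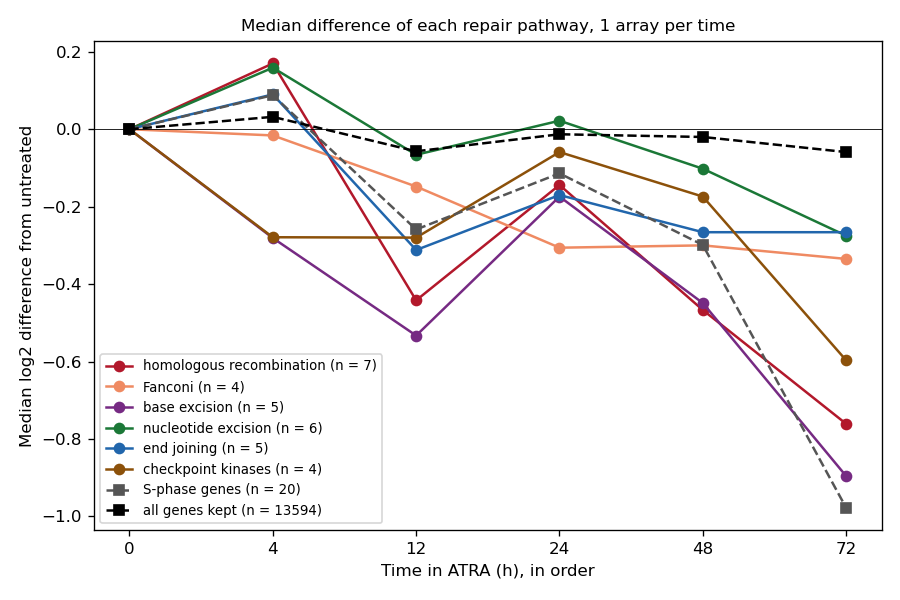
Median log2 difference from the untreated array over the measured genes of 6 repair pathways (circles), 20 S-phase genes and all 13594 genes (squares), by time in ATRA in order from 0 to 72 h, 1 array per time. At 72 h base excision (-0.90) and homologous recombination (-0.76) lie nearest the S-phase genes (-0.98), while nucleotide excision (-0.28) and end joining (-0.27) lie nearest all genes (-0.06). This order is of the members only: further homologous recombination genes (-0.335) lay nearer all genes than further nucleotide excision genes (-0.40). With the 4 h array as baseline end joining is at -0.51, farther from 0 than the Fanconi (-0.32) and kinase (-0.32) medians. With the shift on all controls, which moves every gene alike, the Fanconi, nucleotide excision, end joining and kinase medians turn positive and all genes are at 0.60.

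Among 108 further repair genes measured from the same pathways and from translesion synthesis, 18 fell (16.7%) and 1 rose. Their median difference at 72 h was -0.48, which turns to 0.18 with the shift on all controls (all genes 0.60). By list the 72 h median was -0.99 for mismatch repair, -0.75 for base excision and -0.46 for Fanconi genes. It was -0.40 for nucleotide excision, -0.335 for homologous recombination and 0.02 for end joining, so the order of the members was not kept. The mismatch repair list held 5 falling genes of 12, and its strand resynthesis genes, shared with replication, were most of them. The polymerase delta subunit POLD2 (-2.00 at 72 h), the clamp loader subunits RFC3 (-1.60) and RFC2 (-1.24) and the MutL protein PMS1 (-1.60) fell. In base excision 2 of 14 fell, the glycosylases NTHL1 (-2.73) and TDG (-0.99). With the mean of its probe sets TDG was not called (slope -0.091, limma adjusted p = 0.216). In homologous recombination 2 of 21 fell (9.5%), the Werner syndrome helicase WRN (-1.52) and the strand exchange factor XRCC2 (-1.13), and in the Fanconi list 1 of 12 (8.3%), the core complex protein FAAP100 (-1.06). Both shares are near the 9.86% of all genes.

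Outside those lists, the translesion group held 3 falling genes of 11, the PCNA ubiquitin ligases RAD18 (-1.78) and HLTF (-1.41) and the polymerase zeta subunit MAD2L2 (-1.15). In nucleotide excision 2 of 17 fell (11.8%, also near that of all genes), the ubiquitin ligase scaffold CUL4A (-1.49) and the TFIIH kinase assembly factor MNAT1 (-0.89), and UVSSA, which acts at stalled transcription, rose (1.01). UVSSA was not called with the mean of its probe sets (slope 0.06). In checkpoint signalling 2 of 13 fell, the phosphatase CDC25A (-1.43) and the clamp loader RAD17 (-1.10). The demethylase ALKBH2 (-1.76) fell, 1 of 2 further direct reversal genes. None of the 6 further end joining genes was called by limma, or passed an unadjusted p under 0.05. No adjusted call among 6 genes is near the shares of all genes.

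The promoters of the falling genes were set beside those of the others, since E2F factors are known to drive many replication and repair genes in dividing cells. RefSeq promoters of assembly GRCh38.p14, 250 bases before to 50 after the start site, were matched by symbol for 34 of the 37 genes. The table lists several start sites for 13 of these, among them 5 of the 8 falling genes, and the first listed was used. Both strands were searched for the E2F letters TTTCCCGC, TTTGGCGC, TTCCCGCC and TTGGCGCC, of which the first overlaps the third and the second overlaps the last by 7 bases. At least 1 was found in 4 of the 8 falling genes, in 6 of 22 measured genes that were not called falling (27.3%), and in 8.1% of the 10865 promoters of the genes kept by the filter. Counting any listed start site, a choice made after seeing the data, it was 4 of the 8, 8 of the 22 (36.4%) and 9.8% of the genes kept. The CCAAT letters occurred in 6 of the 8, in 9 of the 22 (40.9%) and in 36.1% of the promoters of the genes kept, and over any listed start site in 6, 12 and 42.2%. The cell cycle element TTTGAA occurred in none of the 8, in 3 of the 22 and in 10.2% of those of the genes kept, and over any listed start site in 1, 5 and 13.9%. The interferon-stimulated response element, also searched, was in none of the 34 and in 2.8% of those of the genes kept. A match describes these letters and shows no binding.

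The 4 falling genes with E2F letters are shown from 100 bases before to 30 bases after the start site, 5′ to 3′ on the gene's strand, with the matches in capitals. All lie on the plus strand: RAD54L at chr1:46247588-46247717, BLM at chr15:90717246-90717375, MSH6 at chr2:47783045-47783174 and UNG at chr12:109097497-109097626.
RAD54L: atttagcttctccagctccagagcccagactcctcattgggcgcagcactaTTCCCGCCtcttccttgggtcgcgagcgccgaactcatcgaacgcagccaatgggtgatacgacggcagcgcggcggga
BLM: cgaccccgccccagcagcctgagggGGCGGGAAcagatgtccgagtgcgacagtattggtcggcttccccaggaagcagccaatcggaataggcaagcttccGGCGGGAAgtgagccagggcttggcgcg
MSH6: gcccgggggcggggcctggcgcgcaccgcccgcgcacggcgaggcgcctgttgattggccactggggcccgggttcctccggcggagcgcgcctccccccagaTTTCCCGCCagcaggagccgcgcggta
UNG: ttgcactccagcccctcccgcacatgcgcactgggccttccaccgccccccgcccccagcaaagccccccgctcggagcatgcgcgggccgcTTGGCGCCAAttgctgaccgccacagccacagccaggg
In UNG the letters read the same on both strands and cross the start site, from 8 bases before it. In RAD54L they begin 49 bases before it. In BLM they begin 75 bases before it and again at position 3, counting the start site as 1, and in MSH6 at position 4. EXO1, FANCG, APEX1 and CHEK1 held none of the E2F letters in the 300 bases searched at any start site the table lists. Only the E2F letters given above were searched, so other forms of the site are not covered.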

How the data were processed

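RNA of 6 NB4 cultures was measured on Affymetrix arrays with 54675 probe sets. The authors deposited log2 values, one per probe set, made with RMA per the submitters' processing notes; the RMA version is not given in the sources used here. Array medians spanned 3.64 to 3.69. Because RMA evens out the arrays, a change in most transcripts at once would not show. With 6 arrays the precision is limited.

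Groups are the times in the labels. Of the probe sets, 41091 named 1 gene and were no control; symbols follow GRCh38.p14 through Entrez identifiers. A gene was read from its probe set of highest mean and entered the fit if any array reached 3.66, the overall median. Slopes came from limma 3.58.1 under R 4.3.3 (lmFit, then eBayes with trend). The fit was also run on simulated data with independent noise. Those data hold no effect shared by the genes of an array, so they do not bear on array differences. Single-array differences have no p-value and are counted at 2-fold or more. Repair genes had a pooled residual SD of 0.28 around their trends, which also holds any departure from a line.

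Members, lists and motifs were chosen with earlier results of these data known. Any member could be named, with 6 values for those called, 2-fold different or with disagreeing probe sets, and for some others chosen after their values were seen. Other repair genes with a call were named by size at 72 h, at most 4 per list. Alternatives were other probe set rules, filters, scalings, baselines, time scales and covariates, and leaving out each array.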

Additional observations from a re-analysis of the deposited data

How the results depend on the processing

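The count of 8 falling repair genes (9.86% of all genes) was 5 without a filter (5.99%), 4 with cyclic loess (7.82%), 0 with the shift on all controls (0.35%), 17 with the shift without bioC (24.04%), 5 once bioC was a covariate (9.57%) and 0 over the 4 arrays at the lower bioC level (0.94%). Leaving out 1 array gave 1 to 5 falling genes and 0 to 1 rising. The 9 genes 2-fold or more lower at 72 h became 2 (UNG and PRKDC) with the shift on all controls, 16 with the shift without bioC and 14 at 1.5-fold. With the 4 h baseline they were 6: BLM, CHEK1, EXO1, RAD54L, UNG and RAD51C. APEX1, FANCG, MSH6 and PRKDC were then no longer 2-fold lower. Genes higher at 72 h, 0 as deposited, were 3 with the shift on all controls (ATM, ERCC1 and LIG4), 1 with the 4 h baseline (ATM) and 1 at 1.5-fold (ERCC1). The shift on all controls put the 72 h median of all genes at 0.60. With it the 72 h medians reversed in sign for the repair genes (0.28), the Fanconi (0.33), nucleotide excision (0.39), end joining (0.40) and kinase (0.067) members and the further repair genes (0.18). The medians moved to -0.10 for homologous recombination, -0.89 for mismatch repair and -0.23 for base excision. With the shift without bioC they were -0.95 for all repair genes, -1.33 for homologous recombination, -0.90 for Fanconi, -2.115 for mismatch repair, -1.46 for base excision, -0.84 for nucleotide excision, -0.83 for end joining and -1.16 for the kinases. Cyclic loess gave -0.48 for homologous recombination, -1.24 for mismatch repair, -0.58 for base excision, -0.21 for all repair genes, -0.18 for Fanconi, -0.10 for nucleotide excision, -0.10 for end joining and -0.37 for the kinases, with all genes at 0.05. The 4 h baseline gave -0.76 for mismatch repair, -0.60 for base excision, -0.32 for the kinases, -0.51 for end joining and -0.59 for all repair genes, the mean of 0 and 4 h -1.15 for mismatch repair, and the mean of all probe sets -0.80 for mismatch repair. The step from 48 to 72 h, chosen after seeing the data, moved to -0.69 with the shift on all controls. The shifts' own construction moves every gene alike, and the cause of the other changes was not tested. No paired analysis was possible because each time had 1 array. With 1 array per time, differences close to the residual SD cannot be read, and the 72 h values rest on 1 array.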
